A study of Mus musculus with 15 samples.

Results

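Colorectal adenomas were compared with normal colon epithelium over all 15 of the 15 arrays of the series, pooling 7 adenoma arrays against 8 epithelium arrays without regard to drug. A gene was counted as shared when both adenoma groups also differed from both epithelia in the same direction. All mice were Apc+/Min-FCCC animals, in which 1 allele of Apc, a tumor suppressor gene, is mutant; the labels that give strain, sex and age name males on a C57BL/6J background, aged 6 to 8 weeks. Adenoma cells came from tumor-bearing mice on untreated chow (untreated adenoma, 3 arrays) or on chow with sulindac at 300 ppm and atorvastatin at 100 ppm for 7 days (treated adenoma, 4 arrays). Epithelial cells came from tumor-free mice (4 arrays) and from tumor-bearing mice (4 arrays), labelled in both cases as given atorvastatin at 100 ppm for 7 days. Sulindac is a nonsteroidal anti-inflammatory drug and atorvastatin a statin. The labels of the 4 tumor-bearing epithelium arrays give no strain, sex or age, and the protocol text assigns tumor-bearing mice only to untreated chow or to both drugs; the labels were followed. No epithelium came from mice on untreated chow. Tissue and atorvastatin therefore cannot be told apart in the untreated adenomas, nor tissue and sulindac in the treated ones. All cells were laser microdissected, and 10 ng of RNA per sample went through 2 rounds of amplification.

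Apc belongs to the complex that marks beta-catenin for destruction. When Apc is lost in an intestinal cell, beta-catenin accumulates, enters the nucleus and activates genes together with T cell factor (Tcf/Lef) proteins, as Wnt ligands do in normal crypts. The Wnt pathway maintains the stem cells at the crypt base, and colonocytes that move up the crypt leave its range and mature into absorptive, mucus-secreting and hormone-producing cells. Tumors in Min mice typically begin when the remaining normal copy of Apc is lost.

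Near-identical arrays were counted as 1 sample. In adenoma, untreated arrays 1 and 2 differed by less than the spot noise, as did treated arrays 2, 3 and 4 among themselves. In epithelium, this held for tumor-free arrays 3 and 4 and for tumor-bearing arrays 1 and 3. The arrays numbered 2 of both epithelia, which bear different labels, differed by an SD of 0.183 against a spot noise of 0.178 and were also averaged, since an SD of up to 1.1 times the noise was allowed. After averaging, 4 adenoma and 5 epithelium samples remained, and the p-values measure only the spread between these samples, which may in part be technical. The sample values below are listed in a fixed order. Among adenomas the order is untreated arrays 1 and 2, untreated array 3, treated array 1, and treated arrays 2 to 4. Among epithelia it is tumor-free array 1, the pair of arrays 2, tumor-free arrays 3 and 4, tumor-bearing arrays 1 and 3, and tumor-bearing array 4. Each value is a level in log2 units relative to the 75th percentile of its array, so 0 is the brightness at that percentile and 1 unit is a doubling. On each array 56.5% to 75.5% of probes gave a signal well above background.

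Of 18926 genes tested, 2954 (15.6%) were called at a limma adjusted p of 0.05, with 1275 (6.74%) higher and 1679 (8.87%) lower in adenoma, and 5971 had an unadjusted p at or under 0.05. The median log2 difference over all genes tested was -0.15; it moved to -0.02 under quantile normalization and with the authors' deposited table, so small differences have no settled direction. In 3374 genes (17.8%) the 4 adenoma samples and the 5 epithelium samples did not overlap. Among called genes the median size of the difference was 2.44, and 875 genes were at least 4-fold higher and 1026 at least 4-fold lower. Both adenoma groups differed from both epithelia for 921 genes, of which 403 (2.13% of those tested) were higher and 518 (2.74%) lower, and all of these were also called in the pooled comparison. Taken singly, the pair of untreated adenoma and tumor-free epithelium called 9.53% of genes, untreated adenoma and tumor-bearing epithelium 10.7%, treated adenoma and tumor-free epithelium 9.91%, and treated adenoma and tumor-bearing epithelium 11.7%; these pairs share samples. This count of shared genes depended on single samples. It was 375 without untreated adenoma array 3, 519 without untreated arrays 1 and 2, 525 without treated array 1, 557 without treated arrays 2 to 4, and 525 without the near-identical pair of arrays 2. Leaving out tumor-bearing epithelium array 4 raised it to 1411. Without the pair the pooled comparison called 2202 genes, and without tumor-bearing array 4 it called 3593. Tumor-bearing array 4 had the lowest quality weight (0.51, against 0.78 to 1.60 for the other samples), and in 37.6% of the called genes it was the epithelium sample nearest to the adenoma mean.

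The labelled cell types were first checked against general epithelial genes. Epcam and Cdh1, which encode adhesion molecules of epithelial cells, and Vil1, which encodes the brush border protein villin, were well above background on all 15 arrays. Mean levels were 5.68 ± 0.26 for Epcam, 4.93 ± 0.21 for Cdh1 and 4.84 ± 0.28 for Vil1 in adenoma (SD, n = 4). In epithelium they were 5.53 ± 0.50, 5.22 ± 0.46 and 5.72 ± 0.28 (SD, n = 5). None of these 3 genes was called (limma adjusted p = 0.80, 0.59 and 0.071), and the difference of Cdh1, -0.28, turned to 0.13 under quantile normalization. Of 16 epithelial identity genes, 1 was called (3 without tumor-bearing array 4). The mean level of this list nevertheless lay lower in adenoma, at 3.59 to 4.51 against 4.57 to 5.06 in epithelium, with a median difference of -0.65. Hnf4a, a nuclear receptor that maintains the intestinal epithelial program, fell by 1.68 ± 0.37 (SE, adjusted p = 0.011). Apc itself and Ctnnb1, the beta-catenin gene, differed by 0.20 and 0.36 and were not called. The array does not read the Apc mutation.

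Promoter sequences of some of the genes that differ most are shown here because Tcf/Lef proteins act downstream of Apc. Their known binding motif contains the letters ATCAAAG. RefSeq (GRCm38.p6) windows of the 250 bases before a gene's start were searched on both strands. Sp5 is a transcription factor gene of the Wnt feedback loop, Defa20, Defa22 and Defa23 encode alpha-defensins, and Mmp7 encodes the protease that cuts pro-defensins into active peptides. Capitals mark the motif on either strand, all 5 genes lie on the plus strand, and the first 4 windows end at the base before the RefSeq start. The windows lie at chr2:70474803-70474922, chr8:21509138-21509257, chr8:21162157-21162276 and chr8:21054920-21055039, and the Mmp7 site at chr9:7692091-7692120.
Sp5: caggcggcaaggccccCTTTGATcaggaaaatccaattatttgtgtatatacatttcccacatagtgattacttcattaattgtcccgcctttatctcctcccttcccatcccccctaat
Defa20: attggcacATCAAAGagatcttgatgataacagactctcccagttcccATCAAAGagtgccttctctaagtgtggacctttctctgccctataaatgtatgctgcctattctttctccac
Defa22: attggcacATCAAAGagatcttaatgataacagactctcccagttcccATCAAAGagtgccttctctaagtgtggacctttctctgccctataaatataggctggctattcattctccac
Defa23: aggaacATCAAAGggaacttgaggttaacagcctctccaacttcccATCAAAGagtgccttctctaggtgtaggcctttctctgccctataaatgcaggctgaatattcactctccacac
Mmp7: aacATCAAAGtagctctgagaacaatcgcc
The motif begins 104 bases before the start in Sp5, 112 and 72 bases before it in Defa20 and Defa22, and 114 and 74 bases before it in Defa23. In Mmp7 it begins 247 bases before 1 of the gene's listed starts. Over the 250 bases Defa20 and Defa22 were 98.0% identical, so their matches are not independent of each other, while Defa23 was 64.1% identical to each of them over 248 bases.

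The motif was present in the windows of 3.72% of 27025 genes and of 359 of 12119 genes tested (2.96%). Among genes called higher it was in 34 of 823 windows (4.13%), and among those higher in all 4 pairs of groups in 20 of 272 (7.35%). Among genes called lower it was in 25 of 1075 (2.33%). Of 19 Wnt list members with a window, 3 held it (Mmp7, Sp5 and Tnfrsf19), and of 12 Paneth list members 5 did (Mmp7, Defa20, Defa21, Defa22 and Defa23). No test was run on these shares, related genes share sequence, and a match describes letters and not a bound site. Windows of 250 bases leave out more distant sites.

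Wnt targets and feedback genes were higher in adenoma. Of 30 members, all tested, 21 rose and 0 fell (6.74% and 8.87% of all genes tested), with a median log2 difference of 3.13, and 16 were shared by all 4 pairs of groups. The same shares over all genes tested stand beside every list count that follows. The mean level of the list lay between 2.01 and 2.71 in the 4 adenoma samples and between -1.65 and -0.96 in the 5 epithelium samples. The count was 20 without the near-identical pair and 21 without tumor-bearing array 4. It was 19 without either untreated adenoma sample, the lowest when 1 sample was left out. With the untreated adenomas alone it was 20, and with the treated alone 18. Where only some arrays of a tissue were above background, here and in what follows, the fitted difference rests in part on background signal and its size is uncertain. A gene was tested only if all arrays of 1 or more groups were well above background. A gene that failed this in both epithelium groups entered through adenoma alone, where it is high, and the reverse holds for falls. Among the Wnt genes this concerns at least Notum, Dkk2 and Sp5. In bulk RNA, more cells expressing a gene and more RNA of it per cell cannot be told apart, here or in any result that follows.

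Axin2, a scaffold of the destruction complex and a direct Wnt target, had levels of 3.30, 2.84, 3.72 and 4.16 in the adenoma samples and 0.02, 0.52, 0.25, -0.55 and 0.35 in the epithelium samples. Every adenoma sample was above every epithelium sample. The probe (chromosome 11, 109059707 to 109059766, mm7) gave a difference of 3.38 ± 0.37 (SE, 10.4-fold, limma adjusted p = 0.00015). Lgr5, the R-spondin receptor that marks crypt base stem cells, measured 4.09, 4.70, 4.57 and 4.79 in adenoma against 0.75, -0.06, 0.79, 0.53 and 1.33 in epithelium. Its samples were again apart, by 3.87 ± 0.35 (14.6-fold, adjusted p = 4.7e-05).

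Genes of Wnt antagonists rose as well. Notum, a carboxylesterase that removes the lipid from Wnt proteins, lay at 1.86, 1.71, 2.48 and 3.82 in adenoma and at -5.45, -6.23, -5.88, -6.37 and -5.36 in epithelium, where 3 of 8 arrays were well above background and the spot of 1 tumor-bearing array was an outlier and left out. Its difference was 8.33 ± 0.47 (adjusted p = 2.7e-06). Dkk2, which encodes a Dickkopf protein that acts on Wnt co-receptors, had levels of 3.18, 2.91, 3.94 and 3.21 against -7.07, -8.62, -6.56, -7.54 and -7.46. Only 1 of 8 epithelium arrays was well above background for Dkk2, so the fitted difference of 10.76 ± 0.43 is set largely by background (adjusted p = 2.4e-07). Wif1, which binds Wnt proteins directly, rose by 6.90 and Apcdd1, a membrane-bound inhibitor, by 5.39. Dkk3 did not pass (difference 1.80, adjusted p = 0.058).

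Feedback regulators inside the cell and at the receptor also rose. Nkd1, an intracellular antagonist, measured 4.66, 3.62, 5.10 and 5.96 in adenoma and -2.54, -1.95, -1.93, -3.72 and -0.32 in epithelium, a difference of 6.93 ± 0.66 (adjusted p = 6.5e-05). The ubiquitin ligases Znrf3 and Rnf43, which remove Wnt receptors, rose by 2.87 and 1.97. Among transcription factors, Sp5 rose by 9.08 ± 1.13, Prox1 by 7.17, Lef1 by 4.85, Tcf7 by 3.43 and Sox9 by 1.32. The call of Sox9 was lost in 6 of 9 fits that left out 1 sample, namely without either untreated adenoma sample, treated array 1, the pair of arrays 2, tumor-free arrays 3 and 4, or tumor-bearing arrays 1 and 3. For Sp5 the epithelium samples themselves ranged from -8.13 to -2.45, with 4 of 8 arrays well above background, while the adenoma samples lay between 2.76 and 4.40. The ligand genes Wnt10a and Wnt6 rose by 7.36 and 4.03.

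Mmp7, a matrix metalloprotease, lay at 6.06, 6.33, 5.17 and 6.19 in adenoma and at -4.74, -5.42, -4.73, -4.57 and -1.24 in epithelium. The highest epithelium value was that of tumor-bearing array 4. The difference of 10.08 ± 0.75 (adjusted p = 1.2e-05) was the highest among genes well above background on all 15 arrays.

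Of the growth-related targets, Myc and Cd44 rose. Myc, a transcription factor of growth, measured 4.30, 4.60, 2.72 and 3.15 in adenoma and 1.81, 1.90, 2.27, 1.73 and 2.16 in epithelium. The untreated adenomas were the higher of the adenoma samples, and the difference of 1.72 ± 0.42 (adjusted p = 0.019) was no longer called without either untreated adenoma sample. Cd44, a hyaluronan receptor, rose by 2.59 ± 0.64 (adjusted p = 0.019), but tumor-bearing array 4 at 3.32 overlapped the adenoma range of 3.26 to 4.59, and the call was lost without untreated array 3. Ccnd1, the cyclin D1 gene, differed by 1.13 (adjusted p = 0.15), the ephrin receptor gene Ephb2 by 1.03 (adjusted p = 0.18) and the stem cell factor gene Ascl2 by -0.72 (adjusted p = 0.33).

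**Figure D1:**
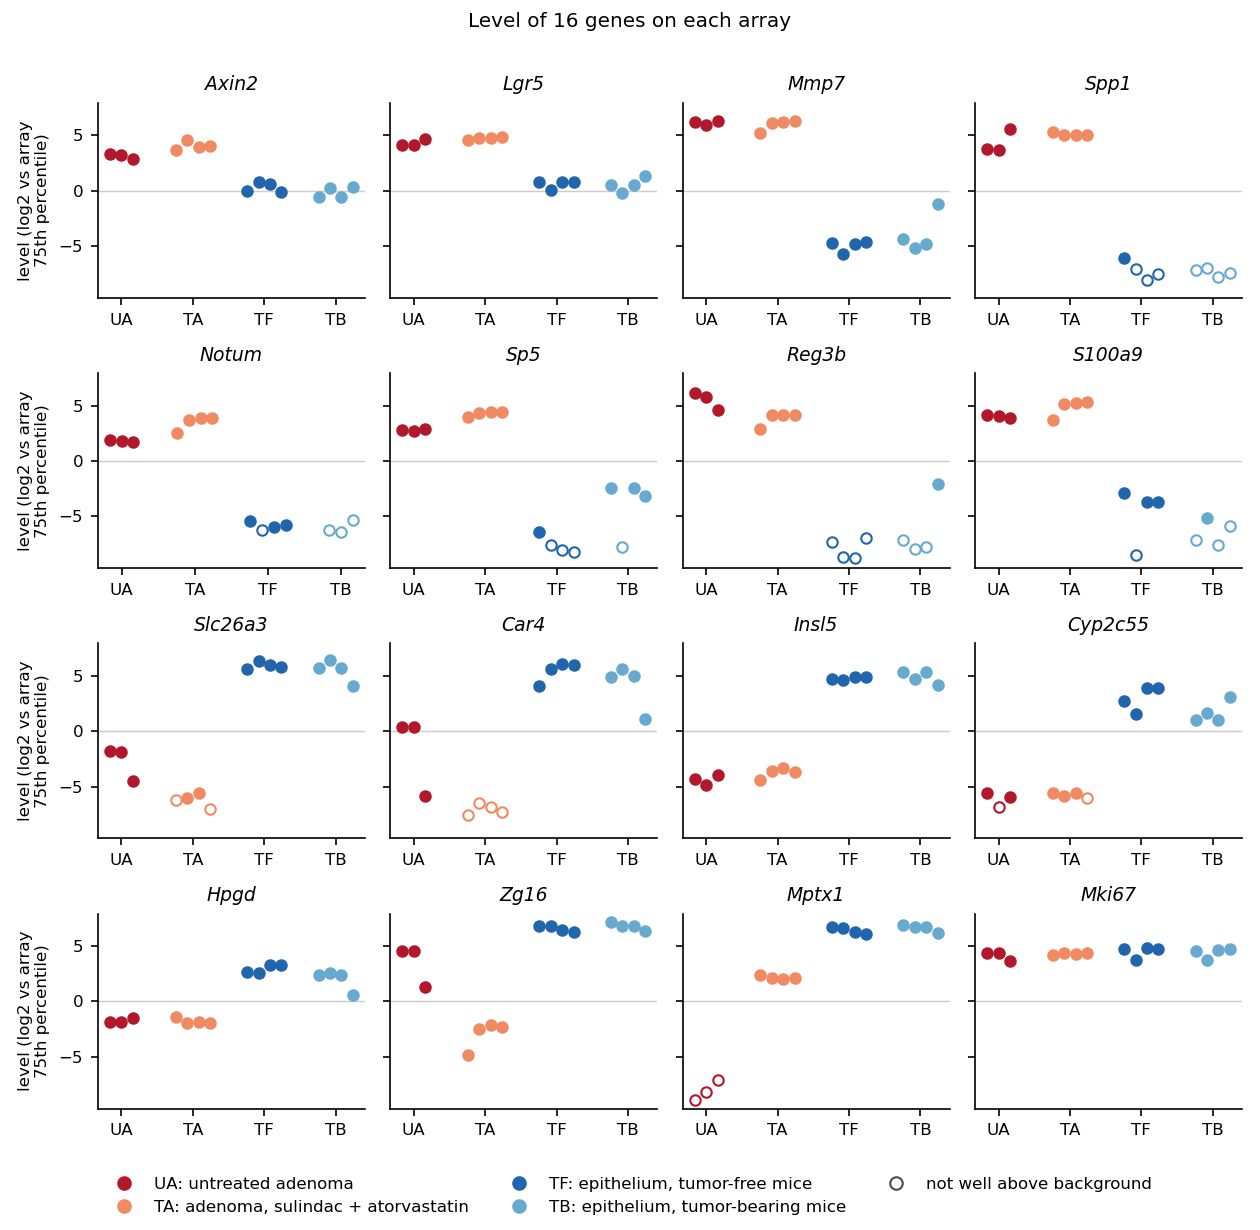
Levels of 16 genes on each of the 15 arrays, in log2 units relative to the array's 75th percentile (vertical axis), with the 4 labelled groups along the horizontal axis; open circles mark arrays on which the probe was not well above background, and a point is missing where the spot was an outlier. Axin2, Lgr5, Mmp7, Spp1, Notum and Sp5 were higher on every adenoma array than on every epithelium array drawn, while Mki67 overlapped and Mptx1 lay apart in the 2 adenoma groups.

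Cell cycle genes differed little beside these. Of 36 tested, 6 rose and 0 fell, with a median of 0.54, and the list mean lay between 2.40 and 3.04 in adenoma and between 1.48 and 2.40 in epithelium. The 6 were the replication genes Mcm2, Mcm3, Mcm4 and Gins1, the cyclin gene Ccne1 and the ribonucleotide reductase gene Rrm2, with differences of 1.02 to 1.52. Only 1 of 36 remained past the threshold without untreated arrays 1 and 2, without untreated array 3 or without the near-identical pair. Mki67, the proliferation marker, had mean levels of 4.13 ± 0.36 in adenoma and 4.50 ± 0.43 in epithelium (SD, n = 4 and 5) and was not called (difference -0.38 ± 0.34 SE, adjusted p = 0.48). Ribosome biogenesis and Myc target genes rose for 3 of 24 members, and for 0 without the pair or either untreated adenoma sample.

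Stem and regenerative crypt genes were split, with 4 of 17 higher and 2 lower. Clu, a marker of revival stem cells, rose by 4.25 ± 0.45, the alarmin gene Il33 by 4.78 ± 0.57 and the polycomb gene Bmi1 by 1.33. The call of Bmi1 held only without untreated arrays 1 and 2, tumor-free array 1 or tumor-bearing array 4, out of 9 fits that left out 1 sample. Aqp4, a water channel gene, fell by 3.80 and the RNA-binding protein gene Msi1 by 3.27. Ly6a, a marker of regenerating crypts, differed by -0.39 and was not called (adjusted p = 0.71). Grem1, a BMP antagonist usually made by stromal cells, rose by 5.66 ± 0.70, and Ihh, the hedgehog ligand of mature colonocytes, and Hhip, a hedgehog-binding protein, fell by 3.36 and 4.05.

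Paneth and deep crypt secretory genes were higher in adenoma. Paneth cells are antimicrobial cells of the small intestine that the normal mouse colon lacks. Of 15 tested members 8 rose and 1 fell, with a median of 4.33. Of the 20 listed genes, 16 were found on the array and 15 of these passed the filter on low values. Defa1 and Defa21 were above background on no epithelium array and so passed it through adenoma arrays alone. Defa20, Defa22 and Defa23 were not above background on every array of either epithelium group. They too passed it through adenoma arrays alone, so the count of rises rests in part on members chosen by high adenoma values. Lyz1, the Paneth lysozyme gene, lay between 4.31 and 5.90 in adenoma and between 0.08 and 1.33 in epithelium (difference 4.33 ± 0.40, adjusted p = 5.4e-05). Kit, a receptor of deep crypt secretory cells, fell by 1.75, a call lost without either treated adenoma sample, tumor-free array 1 or tumor-free arrays 3 and 4.

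Alpha-defensin genes varied. Of 10 tested, 7 rose, and 6 of these were above background on at most 1 of 8 epithelium arrays. Defa1 measured 3.53, 3.24, 3.09 and 4.08 in adenoma and -8.94, -8.30, -8.44, -7.16 and -7.12 in epithelium. It was well above background on 7 of 7 adenoma and 0 of 8 epithelium arrays, so only a bound can be given. Defa1 was at least 750-fold higher in adenoma (limma adjusted p = 2.4e-07), Defcr6 at least 834-fold and Defcr4 at least 362-fold. Defa23, above background on 1 of 8 epithelium arrays, rose by a fitted 10.48 ± 0.59, Defa20 by 9.39 ± 0.43 and Defa22 by 7.54 ± 0.55, both likewise above background on 1 epithelium array. Defa3, above background on all 15 arrays, rose by 2.13, and Defa21, Defa29 and Defa31 were not called (differences 5.71, 2.60 and 2.08). The Defa1 and Defcr6 probes differ by 2 bases and those of Defa23 and Defcr6 by 3, so their signals may come from the same transcripts. The probes of Defa20 and Defa22 differ from the nearest other defensin probe by 23 and 22 bases.

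Inflammatory cytokine and chemokine genes rose for 15 of 32 tested members and fell for 4 (6.74% and 8.87% of all genes tested), with a median of 1.94. Neutrophil markers rose for 12 of 14 and fell for 0, with a median of 4.87. Csf2, Csf3, Cxcl3, Il1a and Il6 of the cytokine list and Cxcr2, Il1f9, Mmp8 and Retnlg of the neutrophil list were above background on no epithelium array. These members passed the filter on low values through adenoma arrays alone, where they are high. So did S100a8 and S100a9, which were not above background on every array of either epithelium group. S100a8, which encodes a calprotectin subunit abundant in neutrophils, lay at 1.84, 1.05, 0.84 and 2.85 in adenoma and at -5.89, -8.33, -6.57, -7.22 and -6.58 in epithelium. All adenoma samples were above all epithelium samples, by 8.56 ± 0.56 (adjusted p = 6.1e-06), with 1 of 8 epithelium arrays above background. Its partner S100a9 rose by 9.56 ± 0.87. Retnlg, the chemokine receptor gene Cxcr2 and the collagenase gene Mmp8 were above background on no epithelium array and were at least 29.3-fold, 7.55-fold and 8.69-fold higher. The mean level of the neutrophil list ranged from -2.19 to -0.44 in adenoma and from -6.46 to -6.05 in epithelium. Mpo, the myeloperoxidase gene of neutrophil granules, differed by -0.15 (adjusted p = 0.81). The granule genes Ngp, Camp and Elane and the surface marker Ly6g were not tested. Of the 18 listed neutrophil genes, 17 were found on the array and 14 of these passed the filter on low values.

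Among the cytokines, Il1b measured 3.41, 2.47, 2.44 and 3.19 in adenoma and -2.23, -3.55, -4.18, -1.99 and -4.71 in epithelium. The samples were apart by 6.21 ± 0.58 (73.9-fold, adjusted p = 5.5e-05). The neutrophil-attracting chemokine genes Cxcl1, Cxcl5 and Cxcl2 rose by 7.99, 6.87 and 5.73, and Cxcl3 was at least 51.7-fold higher. Il6, which signals through gp130, was at least 22.6-fold higher and the growth factor gene Csf2 at least 12.7-fold. Lcn2, an iron-scavenging lipocalin of both neutrophils and inflamed epithelium, lay between 1.47 and 3.95 in adenoma and between -8.62 and -4.90 in epithelium (difference 9.73 ± 0.73, adjusted p = 1.3e-05). Ccl28, a chemokine of mucosal epithelium that attracts plasma cells, fell by 5.22 ± 0.79, the stromal chemokine gene Cxcl12 by 2.29 and Il18, an epithelial cytokine gene, by 2.16. The call of Il18 held only without treated array 1 or tumor-bearing array 4 when 1 sample was left out, and was lost under quantile normalization and with the authors' deposited table. Reg3b, which encodes an antibacterial lectin, measured 5.96, 4.58, 2.85 and 4.12 in adenoma and -7.31, -8.31, -7.88, -7.47 and -2.07 in epithelium. The only epithelium array above background for Reg3b was tumor-bearing array 4, so the fitted difference of 10.98 ± 1.17 (adjusted p = 0.00013) is set largely by background.

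Matrix genes rose for 13 of 26 members and fell for 1. Spp1, which encodes the secreted matrix protein osteopontin, lay at 3.71, 5.56, 5.27 and 5.01 in adenoma and at -6.03, -7.05, -7.79, -7.47 and -7.40 in epithelium. Its probe (chromosome 5) was above background on 1 of 8 epithelium arrays. The fitted difference of 12.03 ± 0.48 (adjusted p = 2.4e-07) is therefore set largely by background. Spp1 and Mmp12 of this list passed the filter on low values through adenoma arrays alone. The stromelysin gene Mmp10 rose by 5.84 ± 0.44, the collagenase gene Mmp13 by 6.62, the gelatinase gene Mmp9 by 5.35 and the thrombospondin gene Thbs2 by 5.06. Postn, a stromal matrix gene, fell by 1.37, but the call held only without tumor-bearing array 4 out of 9 fits that left out 1 sample, and was lost under quantile normalization and with the authors' deposited table. Among other genes, the keratin gene Krt17 rose by 7.14 ± 0.41, the lipoxygenase gene Alox12 by 6.46 ± 0.46 and the adenylate cyclase gene Adcy8 by 10.15 ± 0.63, with 2 of 8 epithelium arrays above background for Adcy8. Prom2, which encodes the membrane protein prominin-2, was above background on no epithelium array and at least 134-fold higher.

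The prostaglandin pathway, which sulindac acts on, had 3 of 18 members higher and 2 lower. Ptgs2, the cyclooxygenase-2 gene, measured 1.26, -0.37, 0.71 and -2.51 in adenoma and -2.03, -6.00, -3.75, -4.68 and -6.69 in epithelium. The lowest adenoma sample, treated arrays 2 to 4, lay below tumor-free array 1, so the groups overlapped. The difference was 4.40 ± 0.99 (adjusted p = 0.012), and with the treated adenomas alone against all epithelium it was not called. Hpgd, which degrades prostaglandins, lay between -1.92 and -1.46 in adenoma and between 0.58 and 3.25 in epithelium, and fell by 3.97 ± 0.49 (adjusted p = 0.00035). Ptger3, a receptor for prostaglandin E2, fell by 6.78 ± 0.59, with 1 of 7 adenoma arrays above background. The prostaglandin exporter gene Abcc4 and the prostaglandin D synthase gene Ptgds rose by 2.46 and 2.47. Ptgs1, the constitutive cyclooxygenase gene, differed by -0.16 (adjusted p = 0.84).

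**Figure D2:**
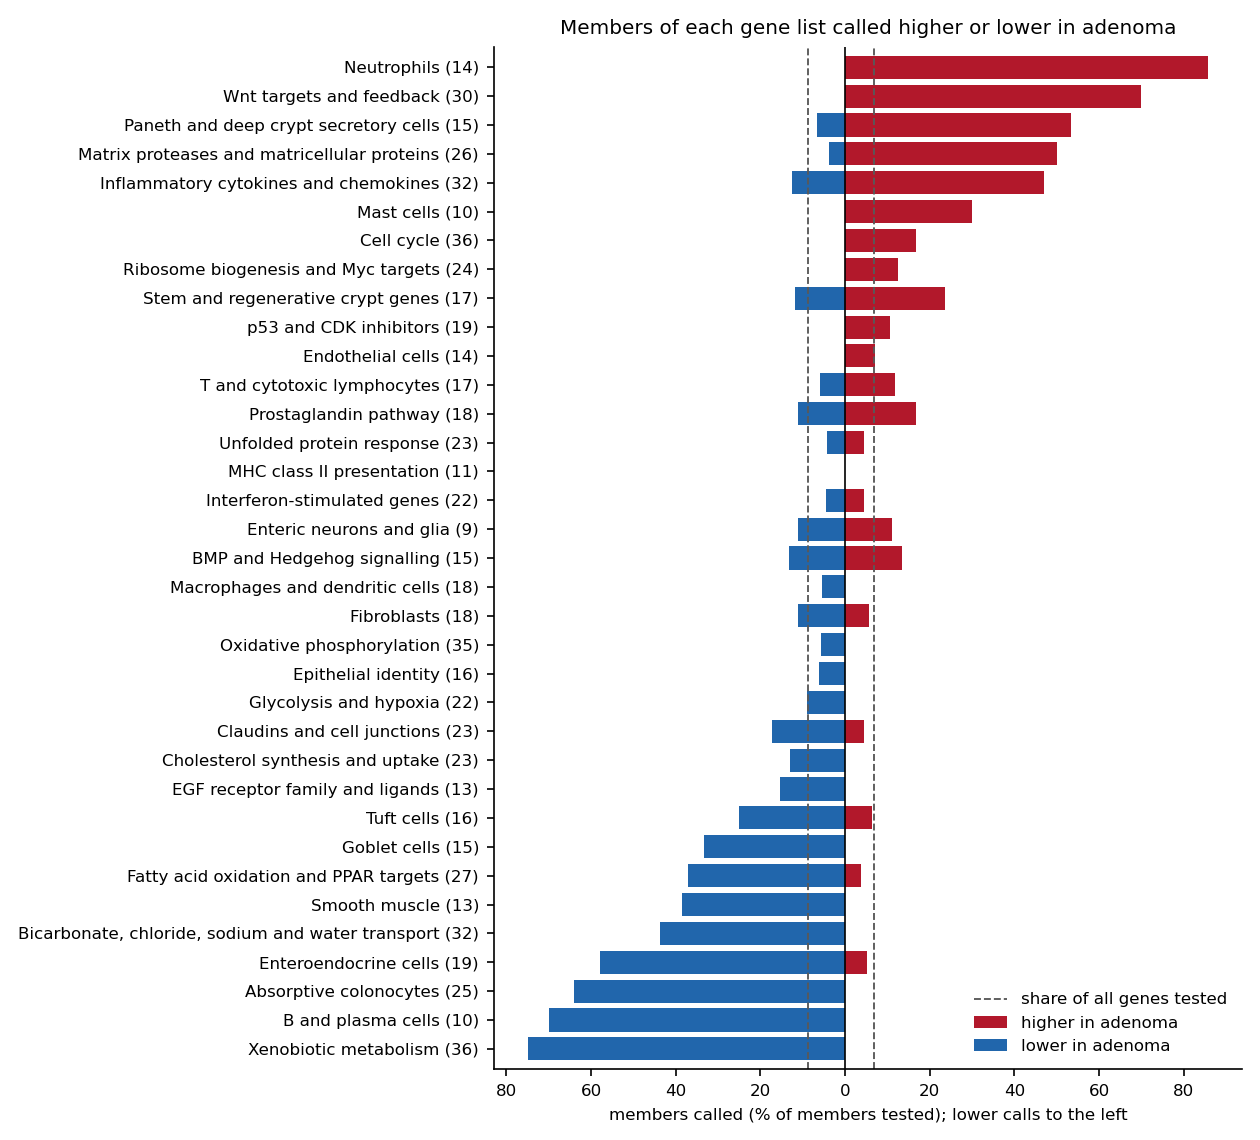
Percent of the tested members of each gene list called higher (to the right) or lower (to the left) in adenoma, for lists with at least 9 tested members; dashed lines mark the shares over all genes tested, 6.74% and 8.87%. Neutrophil markers (12 of 14) and Wnt genes (21 of 30) were mostly higher, and xenobiotic metabolism (27 of 36) and absorptive colonocyte genes (16 of 25) mostly lower.

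Genes of xenobiotic metabolism, which oxidise, conjugate and export foreign compounds, were lower in adenoma. Of 36 tested members 27 fell and 0 rose, with a median of -3.93, and 24 of them were shared by all 4 pairs of groups. The list mean lay between -1.78 and -0.95 in adenoma and between 2.18 and 2.91 in epithelium. Without the near-identical pair 26 fell.

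Cyp2c55, a cytochrome P450 of the colon, measured -6.22, -5.99, -5.58 and -5.83 in adenoma and 2.72, 1.58, 3.89, 1.02 and 3.09 in epithelium. The adenoma samples varied little and all lay below the epithelium. Cyp2c55 fell by 8.37 ± 0.55 (adjusted p = 6.1e-06), with 5 of 7 adenoma arrays above background. Cyp2f2, another P450, was above background on 0 of 7 adenoma arrays and at least 534-fold lower (adjusted p = 9.9e-05). Its epithelium samples lay between 2.37 and 4.32, except tumor-bearing array 4 at -1.63. The sulfotransferase gene Sult1a1 lay at -3.16, -3.62, -0.92 and -3.00 in adenoma and at 4.68, 4.90, 5.09, 5.47 and 4.72 in epithelium, and fell by 7.65 ± 0.51 (adjusted p = 6.9e-06). Sult1c2 fell by 7.67 ± 0.51.

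Several classes had members that fell. Among carboxylesterases, Ces2c fell by 6.02 and Ces1d by 5.08; among dehydrogenases, Adh1 fell by 4.70 ± 0.33 and Aldh1a1 by 4.58. The exporter genes Abcb1a, Abcg2 and Abcc3 fell by 4.54, 3.82 and 3.02. Nr1i2 and Nr1i3, which encode the drug-sensing receptors PXR and CAR, fell by 2.67 and 3.45 (the call of Nr1i3 held only without treated array 1 or tumor-bearing array 4 when 1 sample was left out), while Ahr, the dioxin receptor gene, differed by 0.68 and was not called (adjusted p = 0.23). Most glutathione transferase genes that did not pass lay near the epithelium, such as Gsta4 at 0.12 and Gsta3 at -0.06.

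The windows of a neighbouring pair, Cyp2c65 and Cyp2c66, are shown because both genes fell and both hold CAAAGTC (searched on both strands), the core of the known motif of the receptor HNF4. This motif shares CAAAG with the Tcf/Lef motif. RefSeq places the windows at chr19:39060886-39061005 and chr19:39113778-39113897 (GRCm38.p6, plus strand), each ending at the base before the start, with the motif in capitals.
Cyp2c65: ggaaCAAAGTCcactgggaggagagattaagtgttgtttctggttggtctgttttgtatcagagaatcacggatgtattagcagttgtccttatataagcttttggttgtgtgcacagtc
Cyp2c66: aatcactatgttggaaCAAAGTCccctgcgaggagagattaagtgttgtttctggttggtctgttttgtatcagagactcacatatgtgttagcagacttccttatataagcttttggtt
The motif begins 116 and 104 bases before the start, and both promoters were 71.8% identical over 238 bases. It was in the windows of 4.33% of all genes, 4.31% of genes tested, 71 of 1075 genes called lower (6.60%) and 39 of 823 called higher (4.74%). Of 32 xenobiotic genes with a window 6 held it (18.8%), and none held ATCAAAG. Of the 6, Mgst3, Gstm3, Cyp2c65, Cyp2c66 and Aldh1a1 fell and Ephx1 was not called. A similar share of the Paneth list, which was higher in adenoma, held CAAAGTC, in 2 of 12 windows (16.7%). The share was 2 of 22 in the absorptive list (9.09%) and 1 of 19 in the Wnt list (5.26%). These shares were not tested either. Cyp2c65 and Cyp2c66 fell by 5.75 ± 0.88 and 5.36 ± 0.76. The highest epithelium levels of both, 2.68 and 2.47, were in tumor-bearing array 4.

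Markers of absorptive colonocytes fell for 16 of 25 members and rose for 0, with a median of -3.32. Slc26a3, the chloride-bicarbonate exchanger of the surface epithelium, lay at -1.83, -4.51, -6.26 and -6.23 in adenoma and at 5.64, 6.36, 5.87, 5.70 and 4.06 in epithelium. Treated adenoma arrays 1 and 4 were not well above background for Slc26a3. Untreated adenoma arrays 1 and 2 were the highest of the adenomas and tumor-bearing array 4 the lowest of the epithelia, and the groups were apart by -10.23 ± 0.86 (adjusted p = 2.9e-05). For the water channel gene Aqp8 the same samples were nearest, with 0.59, -4.09, -5.26 and -5.04 against 6.38, 6.44, 6.10, 6.59 and 3.31. It fell by 9.21 ± 1.15 (adjusted p = 0.00036). Car4, a membrane carbonic anhydrase gene, fell by a fitted 9.35 ± 1.54, with no treated adenoma array well above background. Its nearest samples were untreated arrays 1 and 2 at 0.35 and tumor-bearing array 4 at 1.05. Car1, a cytosolic carbonic anhydrase gene, fell by 4.48 ± 0.64 and Scnn1a, a subunit of the epithelial sodium channel, by 4.42.

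Not all genes of mature colonocytes fell. Slc9a3, the main sodium-proton exchanger gene, differed by 1.35 (adjusted p = 0.43), Guca2b, which encodes uroguanylin, by -0.12 (adjusted p = 0.87), and Scnn1b by -1.31 (adjusted p = 0.11). Krt20, a keratin of differentiated colonocytes, fell by 3.91 ± 1.07 (adjusted p = 0.031), with adenoma levels from -1.51 to 5.38. That call was lost without untreated adenoma array 3, treated arrays 2 to 4, tumor-free array 1, tumor-free arrays 3 and 4, tumor-bearing arrays 1 and 3, or the pair of arrays 2. Of 32 genes for transport of bicarbonate, chloride, sodium and water, several of which are also colonocyte markers, 14 fell and 0 rose. Slc5a8, a butyrate transporter gene, fell by 7.32 ± 0.56, the sulfate transporter gene Slc26a2 by 4.72 and Slc9a2 by 3.42. Fatty acid oxidation genes fell for 10 of 27 members, among them Cpt1a by 2.03 and Ppara by 3.30, but for 5 without the near-identical pair. Angptl4, a lipoprotein lipase inhibitor gene, rose by 2.73, a call lost without either untreated adenoma sample.

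Enteroendocrine genes fell for 11 of 19 members and rose for 1, with a median of -3.08. Insl5, a hormone of L cells in the distal colon, measured -4.62, -3.99, -4.45 and -3.55 in adenoma and 4.71, 4.68, 4.86, 5.32 and 4.14 in epithelium. The samples within each tissue lay close together, and the difference was -8.89 ± 0.36 (476-fold, adjusted p = 2.4e-07). Gcg, the proglucagon gene of the same cells, lay between -7.83 and -5.89 in adenoma, where 2 of 7 arrays were above background, and between 2.49 and 4.28 in epithelium. It fell by 10.37 ± 0.52 (adjusted p = 1e-06). The granule protein genes Chgb and Chga fell by 5.95 and 4.15 and Tph1, which makes serotonin in enterochromaffin cells, by 4.54. Pyy, which L cells also release, lay at -0.35 and 2.70 in the untreated and at 6.06 and 5.49 in the treated adenoma samples, against 5.31 to 6.55 in epithelium, and was not called (difference -2.46, adjusted p = 0.15). Nts, the neurotensin gene, rose by 3.08 (adjusted p = 0.039), with 3 of 8 epithelium arrays above background. That call held only without untreated arrays 1 and 2 or tumor-bearing array 4 when 1 sample was left out, and was lost with normexp background correction.

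Goblet cell genes fell for 5 of 15 members and rose for 0. Clca1, a secreted protein of mucus, measured 3.01, 0.58, -0.10 and 0.04 in adenoma and 6.25 to 6.84 in epithelium, and fell by 5.68 ± 0.59 (adjusted p = 0.00011). Best2, a chloride channel gene, Klk1, a kallikrein gene, and the transcription factor gene Creb3l1 fell by 5.85, 5.16 and 1.92. Muc2, the main colonic mucin gene, varied between adenomas, with 4.27, 5.92, -2.25 and 1.52 against 4.37, 5.35, 6.17, 5.90 and 6.28, and was not called (difference -3.25 ± 1.33, adjusted p = 0.12). Tff3 and Agr2, further mucus genes, differed by -0.78 and -1.31 and were not called. Tuft cell genes fell for 4 of 16 members, among them the channel gene Trpm5 by 4.00 (2 of 16 without either treated adenoma sample), and 1 rose, the actin-binding protein gene Avil by 3.52.

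**Figure D3:**
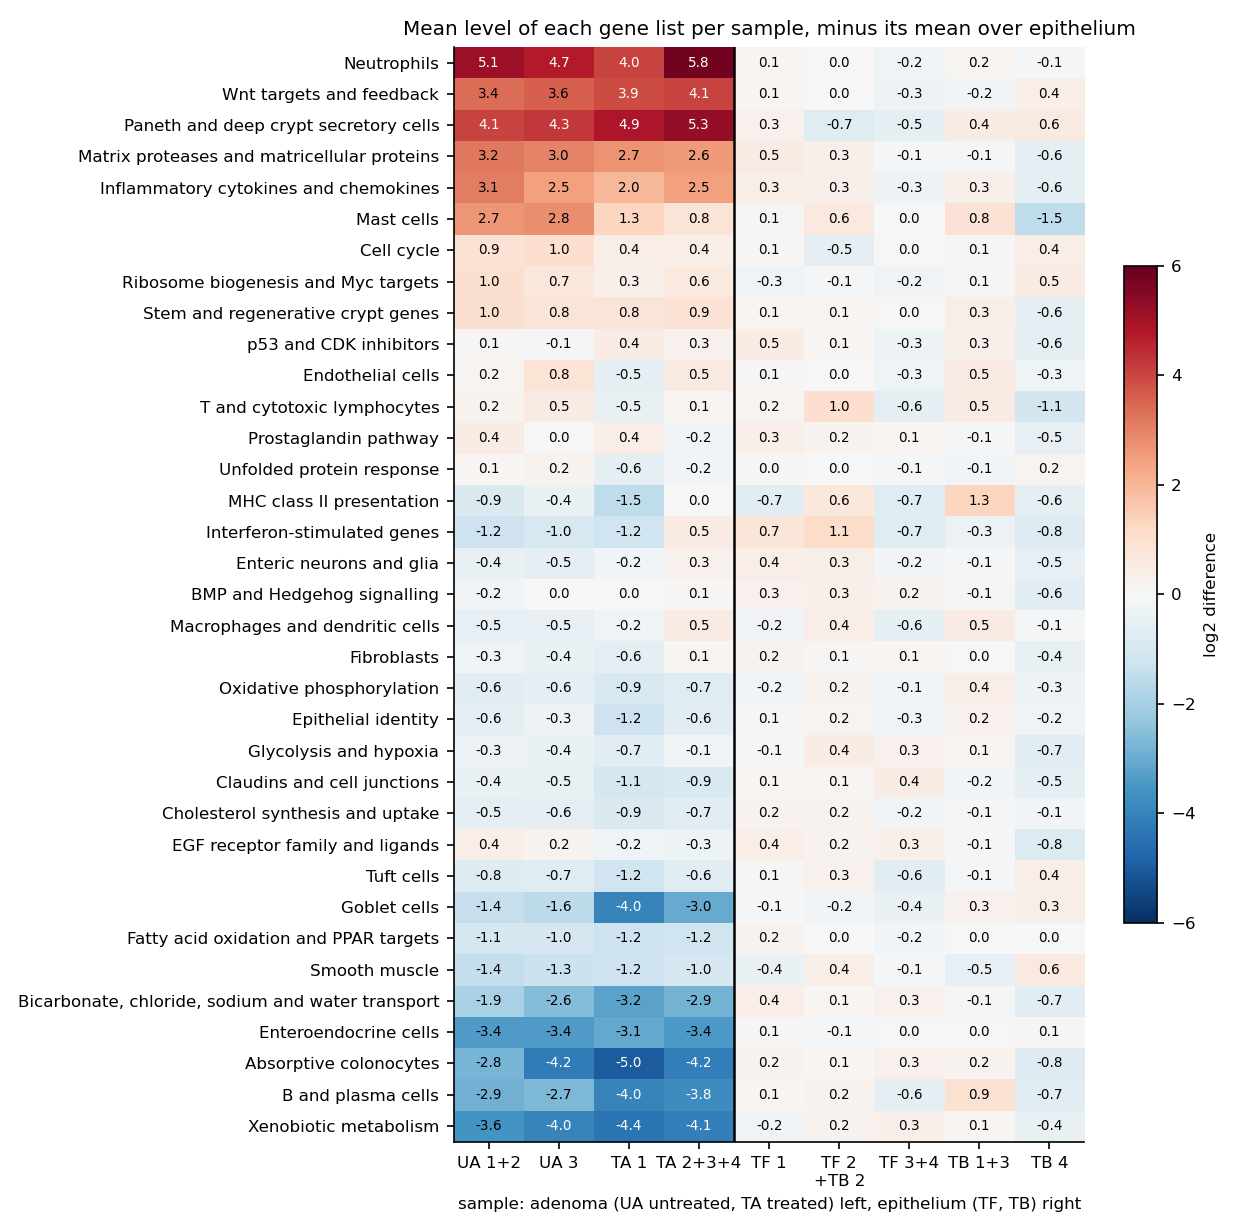
Mean level of each gene list in each of the 4 adenoma and 5 epithelium samples, minus the mean of that list over the epithelium samples, in log2 units (colour scale). Wnt, Paneth and neutrophil lists were above the epithelium mean in all 4 adenoma samples, and xenobiotic, absorptive and enteroendocrine lists below it in all 4.

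Between the adenoma groups, 38 of the 18926 genes differed (0.201%), of which 15 were also called in the pooled comparison, so for these the pooled value averages unlike groups. Mptx1, a mucosal pentraxin gene, lay at -8.55 and -7.10 in the untreated and at 2.38 and 2.07 in the treated samples, all below the epithelium range of 6.16 to 6.80. No untreated adenoma array was well above background for Mptx1, so its untreated levels are background signal. Hao2, a peroxisomal oxidase gene, showed the opposite order, with -2.90 and -4.30 in untreated and -8.28 and -8.03 in treated samples against 4.16 to 4.84 in epithelium. The treated levels of Hao2 are at the height of background, since Car4 at -7.61 to -6.50 was not well above it on any treated array. Zg16, a goblet cell lectin gene, had 4.51 and 1.25 against -4.85 and -2.34, below 6.32 to 6.98 in epithelium. The metallothionein gene Mt4 was above all epithelium samples in both adenoma groups, with -0.61 and -1.81 in untreated and 3.29 and 3.48 in treated samples. Between the epithelium groups limma called 0 of 18926 genes (0%), and 533 had an unadjusted p at or under 0.05; these groups share the near-identical pair.

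Markers of other cells moved with these lists. B and plasma cell genes fell for 7 of 10 tested members, with list means of -3.85 to -2.56 in adenoma and -0.52 to 1.08 in epithelium. Jchain, the joining chain of secreted antibodies, lay at -3.61, -1.1, -6.32 and -5.41 in adenoma and between 4.13 and 5.09 in epithelium, and fell by 8.72 ± 0.86 (adjusted p = 8.5e-05). The immunoglobulin gene Iglv1 fell by 10.33 ± 0.57. Smooth muscle genes fell for 5 of 13 (3 without the pair, either untreated adenoma sample or tumor-bearing arrays 1 and 3), with list means of -1.33 to -0.94 and -0.42 to 0.68; Cnn1, the calponin gene, fell by 3.34 ± 0.45. Mast cell genes rose for 3 of 10 (1 without untreated arrays 1 and 2), with list means of -3.38 to -1.34 and -5.63 to -3.28. Of the 3, Hdc, which makes histamine, rose by 6.08 ± 0.89, whereas the mast cell carboxypeptidase gene Cpa3 differed by 2.00 and was not called (adjusted p = 0.22). Macrophage genes fell for 1 of 18, the scavenger receptor gene Cd163 by 6.20, with list means of -0.36 to 0.63 and -0.47 to 0.62. Fibroblast list means of 0.98 to 1.67 and 1.12 to 1.76 and endothelial list means of -1.70 to -0.32 and -1.42 to -0.69 overlapped. The defining neutrophil marker Ly6g was not among the genes tested. The part of these cells in the differences of cytokine, matrix and other genes was not tested.

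Slides (11) and scan dates (6) were shared between tissues in part, and 3 dates held both. Date 1 held 1 adenoma and 2 epithelium arrays, date 2 held 2 and 1, and date 4 held 1 and 1. Of the called genes, 99.6%, 99.8% and 97.3% had the pooled direction within these dates, although these arrays also entered the pooled comparison. Dates 1 and 2 are not independent of each other. The near-identical untreated adenoma arrays 1 and 2 were split between them, as were tumor-bearing arrays 1 and 3. All tumor-free arrays were on dates 3 and 6, without adenoma arrays, so none of the 3 dates covers the tumor-free epithelium label. Within dates 1, 2 and 4 the Wnt medians were 3.17, 3.78 and 2.61, those of the neutrophil list 4.76, 4.12 and 5.34, and those of the Paneth list 3.19, 3.42 and 3.93. The xenobiotic medians were -3.68, -4.05 and -2.51, the absorptive medians -2.37, -3.53 and -2.33 and the enteroendocrine medians -3.33, -3.40 and -3.72. Slide 3, with 1 array of each tissue, both from date 2, gave a lower Paneth median of 1.59. Its medians were 3.54 for Wnt, 5.09 for neutrophil and -3.20 for xenobiotic genes. Slide 7, the only other slide with both tissues, held the arrays of date 4.

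**Figure D4:**
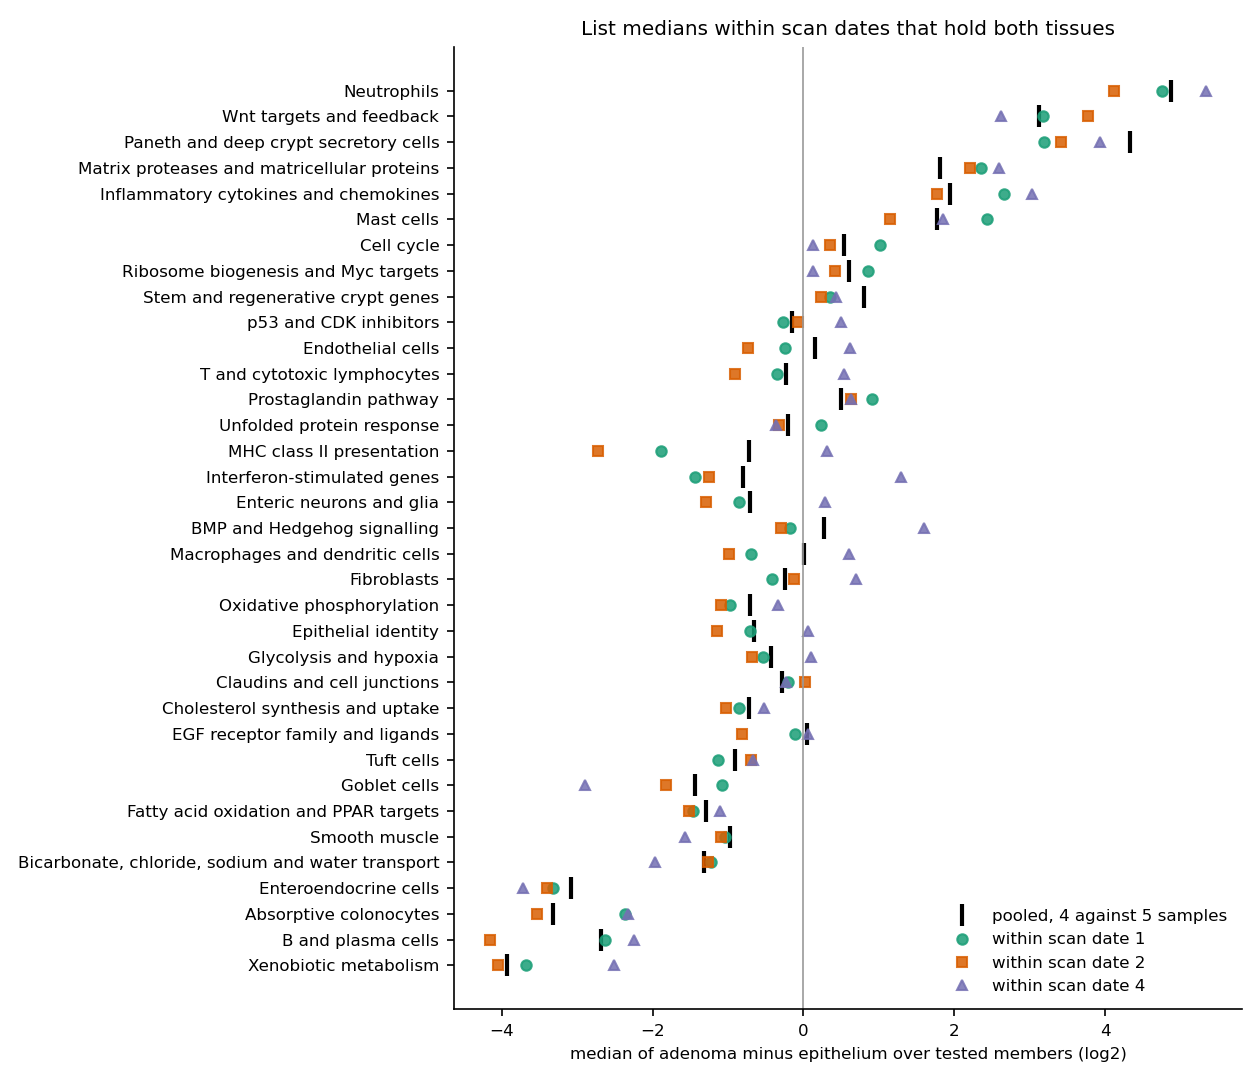
Median log2 difference, adenoma minus epithelium, of each gene list over all samples and within the scan dates 1, 2 and 4 that held both tissues (horizontal axis). The Wnt medians lay between 2.61 and 3.78 and the xenobiotic medians between -4.05 and -2.51 on the 3 dates, while lists such as MHC class II presentation (-1.89, -2.72 and 0.31) and fibroblasts (-0.42, -0.13 and 0.69) changed sign between dates.

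Cholesterol genes, the targets of the statin that all epithelium donors received, fell for 3 of 23 members (Dhcr7 by 1.83, Msmo1 by 1.26 and Lss by 1.1) and rose for 0, and for 1 of 23 without the near-identical pair, tumor-free array 1 or any one of the 4 adenoma samples. The list mean lay between 2.10 and 2.43 in adenoma and between 2.78 and 3.16 in epithelium. The synthase gene Hmgcs1 differed by -0.99 ± 0.37 (adjusted p = 0.099).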

How the data were processed

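RNA of 7 adenoma and 8 epithelium samples was hybridised to Agilent mouse arrays of 1 colour, read with Agilent Feature Extraction 9.5.3 per the submitters' processing notes. The deposited scanner files hold a processed intensity per spot, background-subtracted on each array per the file headers, with no normalization across arrays. The authors' deposited table of log2 values served only as an alternative; its tumor-bearing columns matched the 4 scanner files in reversed order, which leaves the numbering there uncertain.

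The log2 processed intensity was taken minus the array's 75th percentile, without control spots and outlier-flagged spots. Such flags took 9.12% of spots on array 2 of the untreated adenomas, 7.81% on tumor-bearing array 1 and at most 1.14% elsewhere, and the number of arrays limits the precision. Probes were named through RefSeq (GRCm38.p6, names only) by accession (22944), symbol (6664) or synonym (3108); 1897 kept the file's name and 6561 had none. The probe with the highest mean stood for its gene. Of 810 called genes with several measured probes, 737 had all of them in one direction; Trib3 was among those that did not.

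Arrays of a tissue whose log2 difference had an SD (0.0857 to 0.183) at or near the spot noise (0.178 to 0.218) were averaged. A gene was tested if all arrays of 1 or more groups had its probe well above background. A gene dim on at least 1 array of each group of a tissue could therefore enter only through the other tissue. Tissues were compared with limma 3.58.1 (lmFit, eBayes, R 4.3.3), two-sided, with Benjamini-Hochberg adjustment over all genes tested and a threshold of 0.05; the 4 pairs of groups came from a fit of 4 groups and 10 samples. These pairs share samples. Where no array of a tissue was well above background, the fold is a bound ("at least"): the other tissue's mean against the mean, over the dim tissue's samples, of the higher of the array's lowest signal among probes well above background and the probe's own signal.

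The comparison, its gene lists and the genes were chosen with earlier results of these data known. Genes were named by a rule: the 12 highest rises and 12 deepest falls measured in both tissues, the 8 highest bounds per direction, up to 4 called members per list, a fixed set, the 8 genes per direction with the highest smallest difference over the 4 pairs, and up to 10 called genes whose adenoma groups differed. Some genes that the rule names are not reported here. Further list members in the text were chosen after their values were seen. The scripts were tested on simulated data.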

Additional observations from a re-analysis of the deposited data

Results flagged for a closer look

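Within each tissue, 332 sets of sample values (166 named genes in 2 tissues) were examined for a sample standing apart from the others, and 20 had one (6.02%, where chance gives about 1 in 20), of which 19 are given here. Tumor-bearing epithelium array 4 was that sample in 9 of them. It lay nearer to the adenomas than the other epithelium samples for Mmp7 (-1.24, others -5.42 to -4.57), Reg3b (-2.07, others -8.31 to -7.31), Aqp8 (3.31, others 6.10 to 6.59), Thbs4 (4.78, others 5.83 to 6.16), Itih5 (3.23, others 5.50 to 6.11), Cyp2c40 (1.83, others 5.17 to 5.64), Cyp2c39 (-4.90, others -0.96 to 0.17), Cldn8 (0.85, others 3.36 to 3.99) and Krt20 (4.72, others 6.11 to 6.53). Treated adenoma array 1 stood apart for Hnf4a (0.33), Clec4e (-1.28), Sdhc (2.31), Wdr43 (1.86) and Apc (2.01, others 0.77 to 0.98). Untreated adenoma array 3 stood apart for Prg2 (-7.35), untreated arrays 1 and 2 for Slc51b (-1.82, others -4.47 to -4.27), treated arrays 2 to 4 for Gcg (-5.89), tumor-free arrays 3 and 4 for Creb3l1 (-3.28) and the near-identical pair of arrays 2 for Mki67 (3.74, others 4.60 to 4.75).

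In 9 named genes the 2 adenoma groups differed from each other (limma, threshold 0.05), with values of treated minus untreated of 10.05 for Mptx1, -6.48 for Zg16, -5.45 for Igh-VJ558, -4.60 for Muc3, 4.59 for Mt4, -4.56 for Hao2, -3.65 for Gsta2, 3.65 for Crym and -2.87 for Prss46. The size for Mptx1 is uncertain, since its untreated levels are background signal. That for Hao2 is uncertain as well, since its treated levels are at the height of background. In each of these 9 genes all adenoma samples lay on one side of all epithelium samples.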

How the results depend on the processing

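Against 2954 genes called, the totals were 2202 to 3141 under normexp background correction, quantile normalization, median centring, the authors' table, either other filter on dim probes and without the near-identical pair, and 2 genes were called in the opposite direction when the most variable probe was used. The share of called genes that were higher was 43.2%, and 37.3% to 50.5% under the alternatives. Fits that count near-identical arrays as separate samples called more. With 15 arrays as samples 7853 genes were called (3195 higher and 4658 lower) and 2599 in all 4 pairs (1055 and 1544). Scan date as a block gave 6152 (2482 and 3670), and could not be fitted for the 4 pairs; slide as a random block gave 7876 (3247 and 4629). The replicate block gave 7749 (3130 and 4619), and 2701 in all 4 pairs (1062 and 1639). Same-numbered arrays of different groups had correlations of -0.17 to 0.45, with 7 of 21 over 0.1, so the numbers are not taken to pair samples. The untreated adenomas alone gave 1861 (823 and 1038) and the treated alone 1830, with 957 lower. Without the pair of arrays 2, 525 genes were called in all 4 pairs (268 and 257). Leaving out 1 sample at a time gave 2202 to 3593 genes (1008 to 1340 higher, 1189 to 2253 lower) and 375 to 1411 in all 4 pairs (180 to 517 and 195 to 894). The cause of these changes was not tested.

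Of 154 named called genes, 104 kept their call in every alternative, 50 lost it in at least 1 and 31 when 1 sample was left out; none of the 166 named genes that was called changed sign. With 4 adenoma samples, a gene that was not called cannot be taken as unchanged, and probes near background give only bounds.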

Other observations

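Further genes differed as much as those of the lists above. Among genes measured in both tissues, Nr5a2, which encodes the nuclear receptor LRH-1, fell by 6.92 ± 0.44 (limma adjusted p = 6.1e-06), the brush border protease gene Mep1a by 6.80 ± 0.46, the thrombospondin gene Thbs4 by 7.25 ± 0.76 and Itih5 by 7.01 ± 0.61. Btnl1, a butyrophilin-like gene of gut epithelium, and Ckmt2, a mitochondrial creatine kinase gene, were above background on 0 of 7 adenoma arrays and were at least 122-fold and 99.5-fold lower. Lrg1, a secreted glycoprotein gene, rose by 6.21 ± 0.52 and Cubn, which encodes the endocytic receptor cubilin, by 5.81 ± 0.51. The transcription factor gene Sox11 and the serpin gene Serpinb11 were above background on 0 of 8 epithelium arrays and were at least 35.2-fold and 31.8-fold higher.

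In several lists few members were called. Over all genes tested 6.74% were called higher and 8.87% lower, and a count near these shares is not a result about its list. Of 23 claudin and junction genes 1 rose and 4 fell, among them the claudin gene Cldn8 by 4.90 and the brush border protocadherin genes Cdhr5 by 4.15 and Cdhr2 by 3.74; Cldn4 rose by 3.63 (limma adjusted p = 0.050), a call that held only without treated array 1 out of 9 fits that left out 1 sample, and was lost under quantile normalization, median centring and with the authors' deposited table. Oxidative phosphorylation genes fell for 2 of 35, with a median of -0.70, and for 0 without treated array 1 or the pair of arrays 2. The mean of this list nevertheless lay lower in adenoma, at 4.36 to 4.72 against 4.99 to 5.67 in epithelium. With scan date as a block, where near-identical arrays count as separate samples, 19 of 35 fell. This shift of the list as a whole was not tested. Glycolysis and hypoxia genes fell for 2 of 22 (1 without untreated arrays 1 and 2, the pair, or tumor-bearing arrays 1 and 3). EGF receptor family and ligand genes fell for 2 of 13, among them Egf by 2.70 ± 0.50. Of 17 lymphocyte genes 2 rose and 1 fell, with the granzyme gene Gzmb higher by 3.51 ± 0.71. Interferon-stimulated genes rose for 1 and fell for 1 of 22, as did unfolded protein response genes (1 and 1 of 23) and neuron and glia genes (1 and 1 of 9). In the p53 list 2 of 19 genes were called higher. Of 11 MHC class II genes limma called 0, and 2 of them (Ctss and Lgmn) had an unadjusted p under 0.05; with normexp background correction 1 was called. Of 3 tested eosinophil genes, Prg2 was at least 10.2-fold lower, with 0 of 7 adenoma arrays above background, and 2 of 3 tested red blood cell genes fell (0 without untreated arrays 1 and 2, or with the untreated or the treated adenomas alone). Hedgehog and BMP genes rose for 2 and fell for 2 of 15, fibroblast genes rose for 1 and fell for 2 of 18, and endothelial genes rose for 1 of 14. Leaving out 1 sample gave 1 to 2 lower EGF family genes, 1 to 2 higher lymphocyte and p53 genes, 0 to 2 higher and 1 to 3 lower interferon-stimulated genes, 0 to 3 lower neuron and glia genes and 1 to 3 lower fibroblast genes, so calls in these lists rest on single samples. The list medians of the fibroblast (-0.24), unfolded protein response (-0.21) and p53 genes (-0.16) changed sign under quantile normalization.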
